A study of Mus musculus with 12 samples.

Results

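The genes examined here encode adhesion receptors of lymphocytes: the integrin α subunits *Itga4* and *Itgal*, the integrin β subunits *Itgb1*, *Itgb2* and *Itgb7*, the integrin counter-receptors *Icam1* and *Icam2*, the hyaluronan receptor *Cd44*, and *Selplg*, which encodes the selectin ligand PSGL-1. They are 9 genes chosen by symbol, with earlier results of these data known, out of 13574 genes listed in the deposited count tables. The set holds a selectin ligand but no selectin. The RNA came from follicular B cells sorted from spleens of adult male mice. WT mice were Gpr174+/Y. KO mice were Gpr174-/Y and carried a tdTomato reporter in place of the coding exon of *Gpr174*, an X-linked gene for a receptor of lysophosphatidylserine. Sorted cells were frozen at once (0 h, called fresh) or cultured for 4 h in complete RPMI medium with no added stimulus (4 h, called cultured). Each genotype and time had 3 libraries, and the study used 3 mice per genotype.

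Integrins are heterodimers of an α and a β chain. The α4 chain (*Itga4*) joins β1 (*Itgb1*) to form VLA-4, which binds VCAM-1 and fibronectin, or joins β7 (*Itgb7*) to form the receptor for MAdCAM-1, the addressin of gut venules. The αL chain (*Itgal*) joins β2 (*Itgb2*) to form LFA-1, which binds ICAM-1 and ICAM-2. CD44 binds hyaluronan, and PSGL-1 is a mucin that binds P-selectin once it has been glycosylated and sulfated. In B cells these receptors serve entry into lymphoid tissue, retention there and contacts with T cells and stromal cells, and their ligand binding is set by inside-out signaling as well as by the amount of protein.

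The genes lie on 8 chromosomes (GRCm38/mm10, GENCODE M21 gene models, all protein coding). *Itga4* is at chr2:79255426-79333123 (plus strand) and *Cd44* at chr2:102811141-102901665 (minus). *Itgal* is at chr7:127296260-127335138 (plus), *Itgb1* at chr8:128685654-128733200 (plus), *Itgb2* at chr10:77530252-77565708 (plus) and *Itgb7* at chr15:102215995-102231944 (minus). *Icam1* is at chr9:21015985-21028817 (plus), *Icam2* at chr11:106377656-106388075 (minus) and *Selplg* at chr5:113818536-113832644 (minus). Values are read counts over a gene's exons. In 2 of the 9 genes an exon overlaps a gene on the opposite strand. *Itga4* shares 1124 exonic bases (8.04% of its exonic length) with *Cerkl*, and *Icam1* shares 511 bases (11.7%) with *Gm47079*. The strand setting of the counting was not stated, so reads from the shared bases cannot be told apart.

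RefSeq promoter windows (GRCm38.p6, 300 bases each, most of them before the annotated start) were found for *Itga4*, *Itgb1*, *Itgb7*, *Icam1* and *Cd44*, 5 of the 9 genes. The windows of both partner genes of the MAdCAM-1 receptor are shown because *Itgb7* had the largest genotype difference of the set and *Itga4* encodes its partner, and that of *Icam1* because its level fell in both genotypes. Capitals mark the letters CCACCC, on either strand, in *Itgb7* (chr15:102231886-102232185, minus strand) and *Itga4* (chr2:79255176-79255475, plus strand), and the letters CCGGAA, on either strand, in *Icam1* (chr9:21015690-21015989, plus strand).
Itgb7: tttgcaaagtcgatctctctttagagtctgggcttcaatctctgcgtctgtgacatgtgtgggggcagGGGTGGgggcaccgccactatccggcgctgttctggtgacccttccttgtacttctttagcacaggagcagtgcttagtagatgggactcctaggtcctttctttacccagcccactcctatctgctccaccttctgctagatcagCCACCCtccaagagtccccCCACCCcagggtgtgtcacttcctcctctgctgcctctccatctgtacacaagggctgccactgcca
Itga4: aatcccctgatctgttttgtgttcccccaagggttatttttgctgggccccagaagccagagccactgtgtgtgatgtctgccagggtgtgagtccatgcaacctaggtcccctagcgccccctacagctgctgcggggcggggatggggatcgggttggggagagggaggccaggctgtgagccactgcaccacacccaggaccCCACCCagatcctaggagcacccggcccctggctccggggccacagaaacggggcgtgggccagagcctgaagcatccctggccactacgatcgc
Icam1: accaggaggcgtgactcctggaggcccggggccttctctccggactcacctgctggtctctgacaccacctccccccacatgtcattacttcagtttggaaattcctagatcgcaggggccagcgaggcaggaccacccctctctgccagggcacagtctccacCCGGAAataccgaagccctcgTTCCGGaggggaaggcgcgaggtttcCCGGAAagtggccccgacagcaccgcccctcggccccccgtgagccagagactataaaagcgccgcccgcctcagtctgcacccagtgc

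Both strands were searched for exact letters. CCACCC was found 3 times in *Itgb7*, with first bases at -182 (opposite strand), -36 and -17 from the start site. It was found once in *Itga4*, at -45, and at -117 and -90 in *Icam1*. CCGGAA, the core of sites for ETS factors, was found at -86, -65 (opposite strand) and -39 in *Icam1*, where the match at -86 overlaps the CCACCC at -90, and at 3 in *Itgb1* (opposite strand). Of all 32851 promoter windows in the table, 31.5% held CCACCC and 14.9% held CCGGAA. The letters GGGCGG were in the windows of *Itga4*, *Itgb1*, *Icam1* and *Cd44* and in 35.7% of all windows. The full cyclic AMP response element, TGACGTCA, was in none of the 5 windows and in 1.79% of all windows. A shorter core of that element (the letters TGACG, which the full one contains) was found at -21 in *Itgb1* and in 20.8% of all windows. A match is a description of the letters and not a binding site.

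The 12 libraries held 6098941 to 11618787 counts, and the lowest count of any of the 9 genes in any library was 185 (*Icam1*, cultured WT). Levels are given as CPM, read counts scaled to a common library size with trimmed mean of M-values (TMM) factors, as mean ± SD over 3 libraries. *Gpr174* was at 149.5 to 157 CPM in fresh WT and 73.4 to 76.7 in fresh KO, and at 153 to 169 in cultured WT and 105 to 118 in cultured KO. A count over the whole gene cannot separate the replaced coding exon from the untranslated exons, so this checks the direction of the labels but not the loss of the receptor. Markers of B cells summed to at least 6235 CPM in every library. The label gives the sorted cells as CD21/35- CD23+, whereas *Cr2*, which encodes CD21/35, was at 1070.1 ± 45.7 CPM in fresh WT, near *Fcer2a* (CD23) at 1532 ± 46.6. Marker sums were at most 12.5 CPM for T cells, 13.3 for NK cells, 13.2 for platelets and 3.26 for endothelium. They reached 133 CPM for neutrophils and 2413 CPM for erythroid genes, in both cases with the highest value in the fresh KO group. Neutrophil sums were 20.1 to 57.4 CPM in fresh WT and 41.1 to 133 in fresh KO. At 0 h, 2 of 5 neutrophil markers were called lower in WT (edgeR, adjusted p under 0.05), beside 0.485% of all genes tested. DESeq2 called 1. At 4 h, 0 of 4 were called. The part of this in the genotype values of the 9 genes was not tested.

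Per kilobase of exon, *Itgb7*, *Itga4* and *Icam2* were the most abundant of the 9 transcripts in fresh WT cells, at 70.0 ± 6.08, 65.7 ± 2.46 and 64.1 ± 6.26 CPM per kb, and the libraries' ranges of neighbours in this order overlapped. *Itgb2* (34.1 ± 1.19) and *Itgal* (29.9 ± 0.791), which encode the chains of LFA-1, followed with ranges that were separate from each other and from the genes above and below. *Cd44* (13.2 ± 1.74), *Icam1* (12.4 ± 1.79), *Selplg* (10.7 ± 0.511) and *Itgb1* (10.4 ± 0.337) were lowest, and each overlapped its neighbour. Thus transcripts of the β7 chain, and not those of β1, were the more abundant partner for α4 per kb in these cells.

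In fresh KO cells *Itgb7* was first at 71.0 ± 3.64 CPM per kb, followed by *Icam2* at 63.3 ± 3.21 and *Itga4* at 58.7 ± 3.65. The ranges of *Icam2* and *Itga4* overlapped there, and *Selplg* was last at 11.4 ± 0.820. Thus in KO the mean of *Icam2* was above that of *Itga4* before culture as well. After 4 h of culture the first and the last gene differed from those of the same genotype at 0 h. In cultured WT cells *Itga4* was first at 54.9 ± 0.614 CPM per kb, *Icam2* second at 53.0 ± 1.33 and *Itgb7* next at 32.2 ± 0.671, with separate ranges. In cultured KO cells *Icam2* led at 62.6 ± 2.47, followed by *Itga4* at 55.4 ± 1.71 and *Itgb7* at 45.5 ± 4.00, again with separate ranges. *Icam1* was last in both cultured groups, at 7.24 ± 0.613 in WT and 7.72 ± 1.23 in KO, below the range of *Itgb1*. Lengths are those of merged GENCODE exons, at 13.978 kb for *Itga4*, 2.77 kb for *Itgb7* and 1.904 kb for *Icam2*. The authors' annotation was not stated, so whether its lengths are the same is not known. The order between genes depends on these lengths, and the ranges of libraries take no account of that choice. By CPM, with no length, *Itga4* was highest of the 9 genes in every group, at means of 767 to 919.

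**Figure D1:**
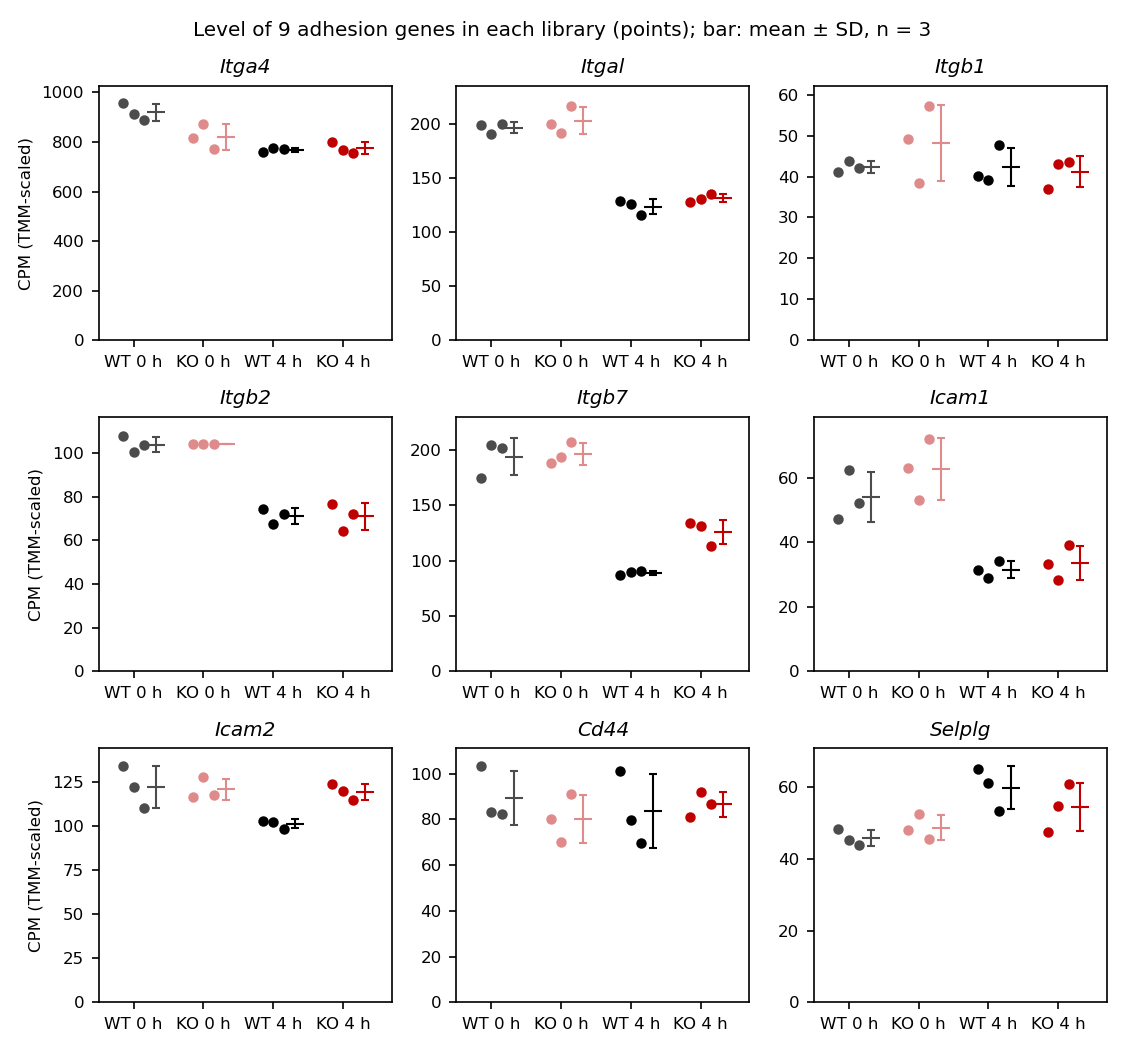
CPM on TMM-scaled library sizes (y axis, linear from 0) of each of the 9 genes in every library (points) of the 4 groups (x axis), with mean ± SD beside them (bar, n = 3). *Itgb7* separates the genotypes at 4 h, with WT libraries at 87.0 to 90.5 and KO libraries at 113 to 134, whereas *Itgal*, *Itgb2* and *Icam1* are lower at 4 h than at 0 h to a like degree in both genotypes.

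Immediately after the sort none of the 9 genes passed the test between WT and KO (edgeR quasi-likelihood, adjusted p under 0.05). The count was 0 of 9, against 0.987% of the 11345 genes tested (0.502% higher and 0.485% lower in WT). At an unadjusted p under 0.05 it was 1 of 9, and DESeq2 also called 0. That gene was *Itga4*, with an unadjusted p of 0.008 and an adjusted p of 0.188. Its levels were 957, 911 and 889 CPM in WT and 816, 873 and 771 in KO, a log2 fold change (WT over KO) of 0.16 ± 0.05 (SE). Every WT library was above every KO library, and such a separation, in either direction, held for 18.2% of all genes.

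For the other genes the WT and KO ranges overlapped at 0 h. The tightest interval, taken as 2 SE to each side, was that of *Itgal*, with WT at 96.3% of KO (89.0% to 104%). *Itgb2* was at 99.3% (91.1% to 108%), *Itgb7* at 98.2% (89.5% to 108%) and *Icam2* at 101% (90.8% to 111%). Intervals were wider for the less abundant transcripts. *Selplg* was at 93.7% (82.7% to 106%), *Cd44* at 111% (96.5% to 127%), *Itgb1* at 87.2% (74.4% to 102%) and *Icam1* at 85.5% (73.1% to 99.97%). Of the other adhesion genes, *Cd24a* and *Rap1b* alone passed the test at 0 h, both higher in WT.

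After 4 h of culture 2 of the 9 genes passed the test between genotypes, *Itgb7* and *Icam2*, against 10.9% of the 11123 genes tested. Both were lower in WT, a direction called for 5.67% of all genes. None was called higher in WT, as 5.22% of all genes were (0 of 9 by edgeR, also at an unadjusted p under 0.05, and 0 by DESeq2).

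*Itgb7*, the β chain of the MAdCAM-1 receptor, had the largest genotype difference of the set. It was at 87.0, 89.8 and 90.5 CPM in cultured WT libraries and at 134, 131 and 113 in cultured KO libraries. All 3 WT libraries lay below all 3 KO libraries, and WT libraries varied little among themselves. WT was at 70.7% of KO (63.9% to 78.2%), a log2 fold change of -0.50 ± 0.07 with an adjusted p of 0.000224 by edgeR. Without any 1 library it ranged from -0.57 to -0.46 with adjusted p at most 0.00331. Its partner *Itga4* gave no such difference, with 757, 774 and 771 CPM in WT and 800.2, 768 and 753 in KO, and WT at 99.2% of KO (92.0% to 107%).

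*Icam2*, a constitutively expressed ligand of LFA-1, was at 103, 102 and 98.1 CPM in cultured WT and at 124, 119.5 and 114 in cultured KO. The groups did not overlap, as for 27.5% of all genes at 4 h. WT was at 84.7% of KO (77.6% to 92.4%, log2 fold change -0.24 ± 0.06, adjusted p = 0.0223). The call was lost without cultured WT replicate 3 (adjusted p = 0.0966), cultured KO replicate 1 (0.111) or cultured KO replicate 2 (0.0838), with log2 fold changes of -0.22, -0.21 and -0.24. Markers of B cells moved in the same direction between genotypes at 4 h, a direction called for 5.67% of all genes tested. Of the 9 B cell markers measured, 5 were called lower in WT (*Cd22*, *Cr2*, *Fcer2a*, *Ms4a1* and *Pax5*) and the other 4 did not pass the test, and their summed level was 6235 to 6461 CPM in WT and 7661 to 7926 in KO. The part of this in the *Itgb7* and *Icam2* values was not tested.

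The remaining genes had overlapping groups at 4 h and did not pass the test. WT was at 94.1% of KO for *Itgal* (86.1% to 103%), at 101% for *Itgb2* (90.0% to 112%) and at 103% for *Itgb1* (89.6% to 119%). It was at 94.5% for *Icam1* (80.0% to 112%), 95.9% for *Cd44* (82.5% to 111%) and 109% for *Selplg* (95.0% to 126%). None of these intervals reached down to 70.7%, the value of *Itgb7*.

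**Figure D2:**
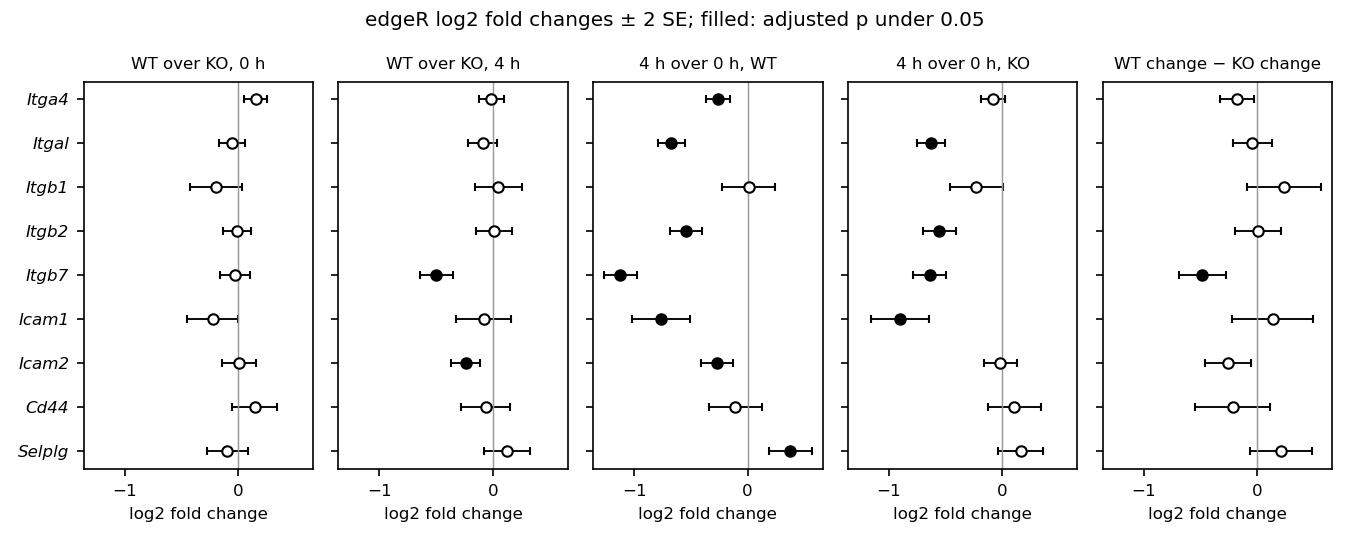
Log2 fold changes from edgeR (x axis, points) with 2 SE to each side (bars) for the 9 genes (y axis) in the 5 contrasts, with filled points for adjusted p under 0.05. No point is filled at 0 h, *Itgb7* and *Icam2* are filled for WT over KO at 4 h, 7 genes are filled for culture in WT and 4 in KO, and *Itgb7* alone is filled where the WT and KO culture changes are compared.

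Culture for 4 h changed more of these genes than genotype did. In WT, 7 of 9 passed the test (6 fell and 1 rose), against 33.1% of the 11572 genes tested, with 18.0% called lowered and 15.1% called raised. In KO, 4 of 9 passed and all 4 fell, against 23.3% of all genes, with 13.0% called lowered and 10.3% raised. The groups did not overlap for 7 of 9 genes in WT and 4 of 9 in KO, against 40.9% and 41.9% of all genes. The median log2 change of the 9 genes was -0.27 in WT and -0.23 in KO, beside 0.0048 and 0.0016 over all genes tested. The 9 genes were chosen with earlier results of these data known. The shares over all genes also include genes with lower counts. The counts out of 9 thus describe this set and are no test of it against all genes. The count in KO was 5 without fresh KO replicate 2, which added *Itgb1* (log2 change -0.36, adjusted p = 0.0234). Fewer cells that express a gene and less of its RNA per cell cannot be told apart in these bulk samples. The 0 h and 4 h counts came in separate tables, so a difference in handling between them cannot be told apart from culture.

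Both chains of LFA-1 fell together. *Itgal* was at 199, 190.1 and 199 CPM in fresh WT, 128, 126 and 116 in cultured WT, 199.8, 192 and 216 in fresh KO and 128, 130.0 and 135 in cultured KO. Every 4 h library was below every 0 h library in both genotypes. The 4 h level was 62.8% of the 0 h level in WT (57.7% to 68.4%, adjusted p = 1.86e-08) and 64.6% in KO (59.4% to 70.4%, adjusted p = 1.07e-07).

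*Itgb2* was at 108, 101 and 104 CPM in fresh WT and at 74.4, 67.4 and 72.0 in cultured WT, and at 104, 104 and 104 in fresh KO and 76.8, 64.2 and 72.0 in cultured KO. The 0 h and 4 h libraries were again fully separated. The level after culture was 68.6% of that at 0 h in WT (62.1% to 75.7%) and 68.1% in KO (61.7% to 75.3%), with adjusted p-values of 3.52e-06 and 5.52e-06. The difference between the WT and the KO change was 0.01 ± 0.10 on the log2 scale for *Itgb2* and -0.04 ± 0.09 for *Itgal*, with adjusted p-values of 0.976 and 0.874.

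Genes of the α4 integrins behaved unequally. *Itgb7* was at 174, 205 and 202 CPM in fresh WT and at 188, 194 and 208 in fresh KO, and its 4 h values are given above. All 4 h libraries were below all 0 h libraries, with the cultured WT group lowest. It fell to 46.0% of the 0 h level in WT (41.5% to 51.0%, log2 change -1.12 ± 0.07, adjusted p = 1.15e-10) and to 64.2% in KO (58.0% to 71.0%, log2 change -0.64 ± 0.07, adjusted p = 9.76e-07).

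The WT change of *Itgb7* exceeded the KO change by 0.48 ± 0.10 on the log2 scale (interaction -0.48, adjusted p = 0.0049). It was the only one of the 9 genes called in that test, against 6.39% of all genes (2.45% with the change higher in WT and 3.94% with it higher in KO). The adjusted p was at most 0.0243 without any 1 library. The next in order were *Icam2* (-0.26 ± 0.10, unadjusted p = 0.0186, adjusted p = 0.163) and *Itga4* (-0.18 ± 0.07, unadjusted p = 0.027, adjusted p = 0.204). For *Icam2* and *Itga4* the difference in culture change did not pass the correction.

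*Itga4* fell in WT, to 83.5% of the 0 h level (77.7% to 89.8%, log2 change -0.26 ± 0.05, adjusted p = 0.00056). The 3 cultured WT libraries were all below the 3 fresh WT libraries. In KO the level after culture was 94.4% of that before (87.7% to 101%, adjusted p = 0.276), and fresh KO and cultured KO ranges overlapped.

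*Itgb1* was at 41.1, 43.8 and 42.1 CPM in fresh WT, 49.0, 38.5 and 57.1 in fresh KO, 40.2, 39.3 and 47.7 in cultured WT and 36.9, 43.1 and 43.6 in cultured KO. All 4 groups overlapped, and fresh KO had the widest spread. The 4 h level was 101% of the 0 h level in WT (85.7% to 118%) and 85.4% in KO (72.6% to 100.4%), and neither passed the test (adjusted p = 0.96 and 0.174).

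Of the ICAM genes, *Icam1*, which is inducible in many cells, fell in both genotypes. It was at 47.3, 62.5 and 52.1 CPM in fresh WT, 31.5, 28.9 and 34.3 in cultured WT, 63.1, 53.0 and 72.0 in fresh KO and 33.3, 28.4 and 39.1 in cultured KO. Each 4 h library was below each 0 h library. The 4 h level was 58.8% of the 0 h level in WT (49.3% to 70.2%, adjusted p = 7.31e-05) and 53.5% in KO (44.8% to 63.7%, adjusted p = 1.48e-05). In KO this was the steepest fall among the 9 genes, whereas in WT *Itgb7* fell furthest.

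*Icam2* was at 134, 122 and 110.2 CPM in fresh WT and at 116, 128 and 118 in fresh KO. In WT it fell to 82.8% of that level (75.0% to 91.4%, log2 change -0.27 ± 0.07, adjusted p = 0.00522). This call was lost when libraries were scaled by their totals alone (log2 change -0.16, adjusted p = 0.0695), a scaling that moved the median of all genes in this contrast to 0.11. In KO the level was 98.9% of that at 0 h (89.7% to 109%, adjusted p = 0.914), and the groups overlapped.

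*Cd44* was at 103, 83.2 and 82.4 CPM in fresh WT, 80.0, 70.1 and 91.0 in fresh KO, 101, 79.8 and 69.8 in cultured WT and 80.9, 91.9 and 87.0 in cultured KO. All groups overlapped and no contrast was called. The 4 h level was 92.9% of the 0 h level in WT (79.1% to 109%) and 108% in KO (91.6% to 127%).

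*Selplg* was the only one of the 9 genes to rise. It was at 48.2, 45.3 and 43.9 CPM in fresh WT and at 65.0, 61.0 and 53.3 in cultured WT, with no overlap. The rise was to 130.0% of the 0 h level (114% to 148%, log2 change 0.38 ± 0.10, adjusted p = 0.00429). KO libraries were at 47.9, 52.4 and 45.5 CPM at 0 h and 47.5, 54.7 and 60.9 at 4 h. They overlapped, at 112% of the 0 h level (97.7% to 128%, adjusted p = 0.256), and the difference between the WT and KO changes did not pass the test (0.22 ± 0.14, adjusted p = 0.465).

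Macrophage and monocyte markers fell with culture alongside the genes above (over all genes tested, 18.0% fell in WT and 13.0% in KO). In each genotype 6 of the 9 such markers tested fell (none rose in WT and 1 in KO), and the summed level of all 14 in the list was 92.1 to 111 CPM in fresh WT, 97.6 to 106 in fresh KO, 34.7 to 53.3 in cultured WT and 42.1 to 55.9 in cultured KO. *C1qa*, *C1qb* and *C1qc* were at group means of 1.58 to 5.30 CPM at 0 h and had no values at 4 h. Of the B cell markers 5 of 9 fell and 1 rose in WT, and 6 fell and 2 rose in KO, and the sum went from 9683 to 10134 CPM in fresh WT to 6235 to 6461 in cultured WT, and from 9197 to 9723 in fresh KO to 7661 to 7926 in cultured KO. The part of either in the falls of *Itgal*, *Itgb2*, *Itgb7* and *Icam1* was not tested.

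Ratios of counts within a library do not depend on library scaling. The ratio of *Itgb7* to *Itgb1* counts was 4.24, 4.67 and 4.81 in fresh WT, 3.83, 5.04 and 3.64 in fresh KO, 2.16, 2.29 and 1.90 in cultured WT and 3.62, 3.04 and 2.60 in cultured KO. All cultured WT libraries had less *Itgb7* relative to *Itgb1* than any other library. The log2 ratio was 1.08 ± 0.14 in cultured WT and 1.61 ± 0.24 in cultured KO (difference -0.54), and 2.19 ± 0.09 and 2.04 ± 0.25 at 0 h. The exact two-sided permutation test gave p = 0.1 for the genotype difference at 4 h and for culture in each genotype, the smallest p that 3 against 3 libraries allow (adjusted p = 0.24 over 12 such tests).

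For the chains of LFA-1 the ratio of *Itgal* to *Itgb2* counts stayed between 1.61 and 2.08 in all 12 libraries. Its 4 differences between groups ran from -0.12 to -0.04 on the log2 scale, and exact permutation p-values were 0.2 to 0.7. The ratio of *Icam1* to *Icam2* was 0.353 to 0.513 in fresh WT, 0.416 to 0.612 in fresh KO, 0.283 to 0.350 in cultured WT and 0.238 to 0.342 in cultured KO. The log2 ratio differed by -0.50 with culture in WT and by -0.88 in KO, without overlap in either (exact permutation p = 0.1, adjusted p = 0.24), and by -0.23 and 0.15 between genotypes at 0 h and 4 h (exact permutation p = 0.4 for both).

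**Figure D3:**
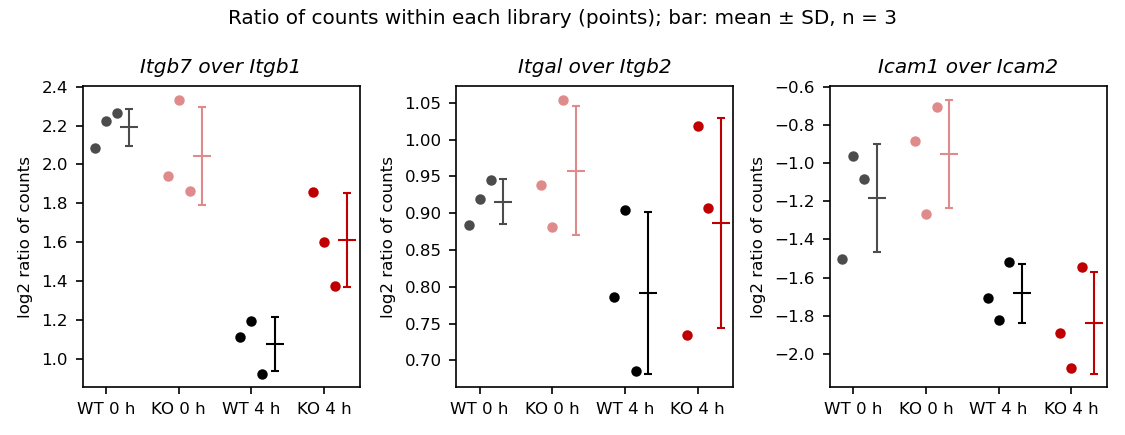
Log2 ratio of counts of 2 genes within each library (y axis, points) in the 4 groups (x axis), with mean ± SD beside them (bar, n = 3). WT 4 h libraries have the lowest *Itgb7* to *Itgb1* ratios, the *Itgal* to *Itgb2* ratio overlaps in all groups, and the *Icam1* to *Icam2* ratio is lower at 4 h in both genotypes.

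Other integrin subunits were compared with the 9 genes because α4, αL and their partners are not the whole integrin set of these cells. Of the 22 listed, 16 were in the tables. At 4 h, 10 could be tested and 2 were called, both higher in WT, beside 5.22% of all genes tested. *Itgb3*, the β chain that joins αv, was at 259, 323 and 339 CPM in cultured WT and at 70.7, 79.6 and 88.3 in cultured KO. Its 0 h libraries were at 57.2 to 98.9 in WT and 75.6 to 82.7 in KO, so the cultured WT group stood apart from the other 3.

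*Itgb3* thus moved in the opposite direction to *Itgb7*. Its log2 fold change was 1.95 ± 0.10 for WT over KO at 4 h (adjusted p = 3.47e-09), 2.01 ± 0.13 for culture in WT (adjusted p = 9.94e-11) and 0.0041 ± 0.14 for culture in KO (adjusted p = 0.99). *Itgav*, which encodes the αv chain, was at 92.6, 115 and 110.4 CPM in cultured WT and 75.7, 78.4 and 73.8 in cultured KO, with a log2 fold change of 0.48 ± 0.08 (adjusted p = 0.000845). It rose with culture in WT (0.42 ± 0.08, adjusted p = 0.000323) and in KO the change was 0.02 ± 0.08 (adjusted p = 0.898).

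The other subunits that passed a culture test were near the detection limit. *Itga10* was at 4.65 ± 1.31 CPM in fresh WT and 2.41 ± 1.15 in cultured WT and was called lower with culture in both genotypes. *Itga11* was called raised and *Itga2* lowered in KO alone, with group means of *Itga2* from 0.78 to 2.23 CPM and of *Itga11* from 0.317 to 1.55. The *Itga11* call was lost without fresh KO replicate 1 or 2 or cultured KO replicate 1 or 3 (adjusted p up to 0.115), and the *Itga2* call without fresh KO replicate 1 or 3 or cultured KO replicate 1 or 2 (up to 0.0936). For *Itga10* the call in WT was lost without fresh WT replicate 2 or 3 or cultured WT replicate 1 or 2 (up to 0.15). This WT call was also lost with library totals only and with only the groups compared, 6 of 18 settings in all. The call in KO was lost without any 1 KO library or cultured WT replicate 2 (up to 0.174). That KO call was also lost with library totals only, no low-count filter and DESeq2, 10 of 18 settings in all.

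Of 23 selectins, counter-receptors and other adhesion molecules, 18 were in the tables. At 4 h, 12 were tested and 3 were called, all lower in WT, beside 5.67% of all genes tested. These were *Alcam* (log2 fold change -0.88 ± 0.09), which encodes the CD6 ligand, *Cd48* (-0.28 ± 0.06), a ligand of CD2 and CD244, and *Sele* (-0.54 ± 0.16), the gene of E-selectin. *Sele* was at 11.6 ± 1.03 CPM in cultured WT, and its call was lost in 7 of 12 alternative settings, 5 of them without a single library (any cultured WT library, or cultured KO replicate 1 or 2), with adjusted p up to 0.233.

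With culture, 14 of that list were tested, and 9 fell and 2 rose in WT while 7 fell and 1 rose in KO. Over all genes tested, 18.0% fell and 15.1% rose in WT, and 13.0% fell and 10.3% rose in KO. *Vcam1*, which encodes a ligand of VLA-4 and is also on the macrophage list, fell most, with log2 changes of -4.74 in WT and -4.59 in KO, from 10.0 ± 2.80 CPM in fresh WT to 0.317 ± 0.274 in cultured WT. *Cd24a* fell, with log2 changes of -1.003 in WT and -0.42 in KO. *Alcam* rose by 0.30 in WT and by 1.04 in KO, and its call in WT was lost without cultured WT replicate 1 (adjusted p = 0.149). *Selp*, the gene of P-selectin, rose by 1.95 in WT but only to 4.14 ± 0.425 CPM.

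The machinery that activates integrins and ties them to actin was tested as a list of 41 genes, of which 37 were in the tables and 36 were tested. At 4 h, 4 were higher and 4 lower in WT, beside 5.22% and 5.67% of all genes tested. The higher ones with the largest changes were *Zyx* (1.56 ± 0.11), a focal adhesion protein, *Cyth1* (1.38 ± 0.06), a β2 integrin tail-binding guanine nucleotide exchange factor also called cytohesin-1, and *Cytip* (0.93 ± 0.06), which encodes a protein that binds cytohesin-1. *Swap70*, a Rac-binding protein of B cells, was lower (-0.92 ± 0.06).

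*Cyth1* was at 504 to 526 CPM in cultured WT and 192 to 203 in cultured KO, beside 177 to 187 in the 6 libraries at 0 h. *Swap70* was at 389 to 419 CPM in cultured WT and 757 to 786 in cultured KO, and at 947 to 1055 at 0 h. With culture, 18 of the 36 genes fell and 4 rose in WT, and 15 fell and 2 rose in KO. Over all genes tested, 18.0% fell and 15.1% rose in WT, and 13.0% fell and 10.3% rose in KO. *Rap1b*, a GTPase of inside-out signaling, fell, with log2 changes of -1.22 in WT and -0.49 in KO, and so did *Cyth4*, with -1.03 and -0.80. The genes of kindlin-3 (*Fermt3*) and talin (*Tln1*) did not pass the test between genotypes at 4 h, with log2 fold changes of -0.09 ± 0.08 and 0.03 ± 0.06.

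**Figure D4:**
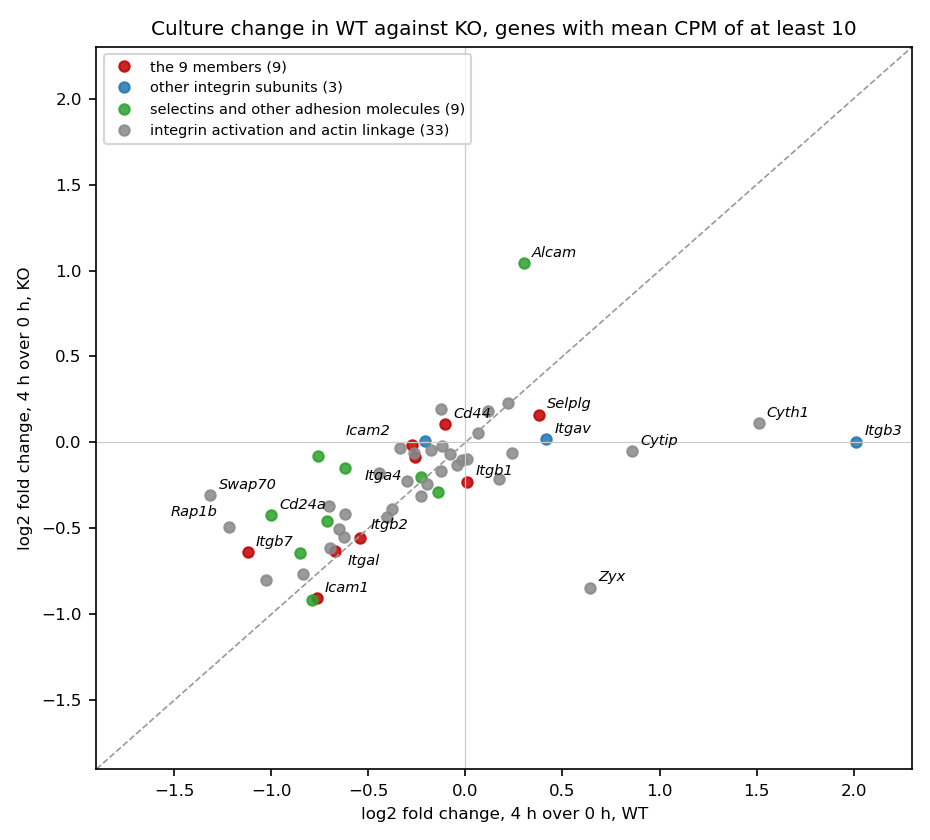
Log2 fold change from 0 h to 4 h in WT (x axis) against that in KO (y axis) from edgeR, for genes of 4 lists with a mean CPM of at least 10 (points, coloured by list), with the line of equal change dashed. *Itgal*, *Itgb2* and *Icam1* lie near the line, *Itgb7* lies above it at -1.12 and -0.64, and *Itgb3*, *Cyth1* and *Cytip* lie far to the right with KO changes near 0.

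Genes for the modification of PSGL-1 and other selectin ligands were 13 in the list and 10 in the tables, and 9 were tested. At 4 h, *Gcnt1*, which encodes a core 2 branching enzyme, was lower in WT (-0.46 ± 0.07, adjusted p = 0.000386). *Tpst1*, a tyrosyl sulfotransferase, and *B4galt1*, a galactosyltransferase, were called higher (0.36 ± 0.10 and 0.22 ± 0.06). The last 2 calls were both lost without cultured WT replicate 3 or any cultured KO library, and that of *B4galt1* also without cultured WT replicate 1. Both were lost with library totals only, and that of *B4galt1* also with DESeq2, the replicate block and all 4 groups in 1 fit (9 of 12 settings), with adjusted p up to 0.172 for *Tpst1* and 0.157 for *B4galt1*. With culture *Gcnt1* rose (0.41 ± 0.07) and *Tpst1* fell (-0.51 ± 0.10) in KO. In WT 0 of 9 passed by edgeR, beside 33.1% of all genes tested, and 0 by DESeq2, with 5 at an unadjusted p under 0.05. This count was 4, all raised, with library totals only, 1 with the replicate block, and 1 to 2 without fresh WT replicate 2 or 3 or any 1 cultured WT library.

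Of 14 partners and shedding enzymes of CD44, 12 were in the tables and 11 were tested at 4 h. *Cd74* (0.37 ± 0.09), which pairs with CD44 as the receptor of MIF, and *Msn* (0.34 ± 0.06), which encodes the linker moesin, were higher in WT. The *Cd74* call was lost without cultured KO replicate 1 or 3 (adjusted p = 0.0793 and 0.0748) and with DESeq2 (0.119). With culture, 13.0% of all genes tested fell and 10.3% rose in KO, and 18.0% fell and 15.1% rose in WT. Of the 11 here, 4 fell and 1 rose (*Adam10*, 0.24 ± 0.08) in KO, and 2 fell (*Rhbdf2*, -0.61 ± 0.08, and *Ezr*, -0.36 ± 0.05) and 1 rose in WT. The gene that rose in WT was *Mmp9*, at 1.95 ± 0.738 CPM in cultured WT, and its call was lost without fresh WT replicate 3 or cultured WT replicate 1 or 3, with adjusted p up to 0.069.

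**Figure D5:**
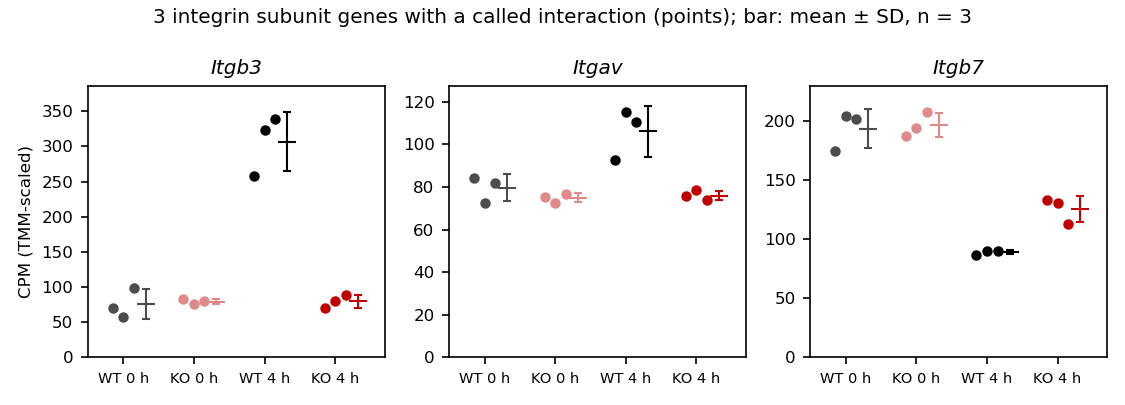
CPM on TMM-scaled library sizes (y axis, linear from 0) in every library (points) of the 4 groups (x axis), with mean ± SD (bar, n = 3), for *Itgb3*, *Itgav* and *Itgb7*. *Itgb3* is at 259 to 339 CPM in WT 4 h and below 100 in every other library, and *Itgb7* is lowest in WT 4 h.

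For each of the 9 genes the gene with the most similar pattern was sought among 8438 genes with a mean of at least 10 CPM, by Pearson's r of log2 CPM over the 12 libraries. The libraries fall into 4 groups, so r mostly describes shared differences between groups. The closest were *Ptpn6* for *Itgb7* (r = 0.988), *Tmem229b* for *Itgal* (0.988), *Rasa2* for *Itgb2* (0.988), *Psmb8* for *Icam1* (0.969), *Slc25a39* for *Selplg* (0.952), *Gm8369* for *Icam2* (0.952) and *Serf2* for *Itga4* (0.935). *Cd44* (*Isyna1*, 0.858) and *Itgb1* (*Rrm2*, 0.835), for which no group differences were called, had the least similar neighbours.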

How the data were processed

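The authors sorted follicular B cells, prepared libraries with a whole-transcriptome amplification kit, sequenced single-end reads and used STAR (mm10) for alignment and HTSeq for counting. The deposited values are raw read counts per gene, in 1 table of 13269 genes for 0 h and 1 of 13142 for 4 h, with 12837 genes in both and no gene under 10 reads over 6 libraries. Tool versions, annotation and strand setting are not given in the sources used here, and DESeq2 is named among the submitters' tools. Totals ran from 6098941 to 11618787 counts. Intervals are 2 SE to each side of a fold change, with the SE taken from the edgeR fit, and are not ranges of the libraries. An interval that leaves out 100% need not go with a p under 0.05. For *Icam1* at 0 h it ended at 99.97%, with an unadjusted edgeR p of 0.0623. Groups came from the labels, with 3 libraries in each. The labels do not say which 0 h and 4 h libraries share a mouse. P-values set a difference against the spread between these libraries. Those for culture and the interaction treated libraries that may share a mouse as independent.

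Genotype was tested at each time in its 6 libraries, and culture and the interaction (WT change minus KO change) in all 12, with edgeR 4.0.16 (filterByExpr, TMM, glmQLFit, glmQLFTest) in R 4.3.3. P-values were adjusted by Benjamini-Hochberg over all genes tested and called under 0.05. Ratios of counts were tested with exact permutation tests (scipy 1.17.1). Alternatives were DESeq2 1.42.0, RLE or total scaling, no filter, other sample sets, a replicate block and leaving out each library. On simulated counts edgeR recovered 96% to 99% of 2-fold changes (log2 size 1) in the genotype contrasts and in WT culture and 91% in the interaction, and 66% to 78% and 35% at a log2 size of 0.5. False calls made up 6.29% to 8.74% of the calls in these simulations, above the threshold of 0.05. Replicate libraries differed beyond sampling noise (chi-square of 2.00 to 9.88 per degree of freedom), so all 12 were kept separate. The 9 genes, the lists and the tests were chosen with earlier results of these data known. From each other list up to 4 genes were named by the size of change among those called at 4 h between genotypes and up to 4 among those called with culture. Others named in the text (*Fermt3*, *Tln1*, *Adam10*, single markers) were chosen after their values were seen. 1 gene of a comparison list is not reported here.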

Additional observations from a re-analysis of the deposited data

Results flagged for a closer look

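For 12 genes among those named, the change from 0 h to 4 h differed between WT and KO in the interaction test (edgeR, adjusted p under 0.05, WT change minus KO change on the log2 scale). Over all 11572 genes tested, 6.39% were called. Genes of the other lists were named for large changes in these same libraries, so the count of 12 gives no rate to set beside that share. Of the 9 adhesion genes it was *Itgb7*, at -0.48. Of the other integrin subunits they were *Itgb3* (2.01), *Itgav* (0.39) and *Itga2* (2.38), and of the selectins and other adhesion molecules *Alcam* (-0.74) and *Cd24a* (-0.58). Of the genes of integrin activation and linkage to actin they were *Zyx* (1.48), *Cyth1* (1.40), *Cytip* (0.91), *Swap70* (-1.004) and *Rap1b* (-0.73), and of the partners of CD44 *Msn* (0.26).

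*Cyth1*, *Cytip* and *Itgb3* rose in WT, and in KO their log2 changes were 0.11, -0.05 and 0.0041. *Zyx* rose in WT (0.64) and fell in KO (-0.84). *Itgb7*, *Cd24a*, *Swap70* and *Rap1b* fell in both genotypes, and more in WT. *Cd24a* and *Rap1b* were already higher in WT at 0 h (log2 fold changes 0.37 and 0.41), and the *Cd24a* call at 0 h was lost without KO 0 h replicate 1 or KO 0 h replicate 3 (adjusted p up to 0.0833). The interaction calls of *Itgav*, *Itga2* and *Msn* did not hold in 11 of 17, 7 of 16 and 10 of 17 alternative settings, all but 1 of those of *Itgav* and of *Msn*, and all of *Itga2*, without a single library. DESeq2 gave no adjusted p for *Itga2* and is not among its 16. Where lost, these calls had adjusted p up to 0.109, 0.152 and 0.125.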

How the results depend on the processing

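Over the 9 genes and 5 contrasts, 660 of the log2 fold changes recomputed under alternatives kept their direction and side of the threshold, 4 lost a call, 1 gained one and 28 changed sign, all 28 in contrasts that were not called. The number of genes called at 4 h between genotypes was 1 to 2 without any 1 library (*Itgb7* in each, *Icam2* lost without cultured WT replicate 3 or cultured KO replicate 1 or 2). With library totals only, culture in WT gave 6 calls in place of 7, the *Icam2* call being lost, and the medians of all genes for culture moved to 0.11 in WT and 0.09 in KO. With that scaling the uncalled values that changed sign were -0.024 (*Icam2*, WT over KO at 0 h), -0.014 (*Itgb2*, 4 h), 0.00029 (*Cd44*, culture in WT), and 0.0064 (*Itga4*) and 0.075 (*Icam2*) for culture in KO. Without single libraries, sign changes left these ranges: at 0 h *Icam2* -0.061 to 0.078, *Itgb7* -0.067 to 0.046 and *Itgb2* -0.034 to 0.012. At 4 h they were *Itgb2* -0.060 to 0.066, *Itgb1* -0.052 to 0.10, *Cd44* -0.22 to 0.065, *Itga4* -0.031 to 0.011 and *Icam1* -0.19 to 0.039. For culture in WT they were *Itgb1* -0.091 to 0.064 and *Cd44* -0.26 to 0.018, and in KO *Icam2* -0.043 to 0.026. For the interaction they were *Itgb2* -0.059 to 0.071 and *Itgal* -0.091 to 0.0051. The log2 ratio of *Itgal* to *Itgb2* was -0.080 to 0.0061 for genotype at 0 h and -0.14 to 0.0050 for culture in KO. The cause was not tested. Of 63 calls of named genes of the other lists, 49 held in every setting; these settings were added for the lists after seeing the data.

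Replicate numbers were used as a block as an alternative. The block gave WT and KO libraries of the same number a shared term, although these are different mice. Deviations of same-numbered libraries correlated from -0.099 to 0.15, over 0.1 in 4 of 12 pairs. These 4 were all among the 0 h and 4 h libraries of 1 genotype (0.126 and 0.117 in WT, 0.145 and 0.152 in KO), where the remaining same-numbered values were 0.072 in WT and -0.040 in KO. Each WT library, and each KO library other than replicate 1, correlated best with its own number at the other time. Since not every value was over 0.1, the numbers were not taken to pair the libraries, and whether they mark the same mice was not settled. Each group had as many libraries as there were mice per genotype, so the 0 h and 4 h libraries of a genotype probably share mice. The main culture and interaction tests treated all 12 libraries as independent, and their p-values take no account of such sharing. With the replicate block the counts of members called were 0, 2, 7, 4 and 1 in the 5 contrasts, the same as without it. The log2 ratios kept their mean differences (sign-flip p of 0.25 at the smallest). Whether the calls hold with each mouse modelled within its genotype was not tested.

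Precision differed between genes. For WT over KO at 4 h the interval was 92.0% to 107% for *Itga4* but 80.0% to 112% for *Icam1*. These intervals are not detection limits, because a call also had to pass the correction over all genes tested.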
